A study of Mus musculus with 4 samples.

Results

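The genes described here are 42 mouse genes of the DNA replication machinery: the factors that license replication origins, the replicative helicase, the polymerases, the sliding clamp and its loader, and the enzymes that supply deoxynucleotides. They were taken by symbol from a list defined by function and chosen with earlier results of these data known. All 42 are among the 24346 gene symbols measured. RNA sequencing of MC38 cells, a mouse colon cancer line, gave 4 libraries: 2 labelled as an Arid5a gene knockout (KO) and 2 labelled wild type (WT). KPC cells, also named in the series' design text, are not analysed here. The labels do not say which part of Arid5a was deleted, whether the knockout cells are 1 clone, or whether the 2 libraries of a group came from separate cultures. The p-values therefore measure only the spread between these libraries, which may be technical.

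Values were FPKM, fragments scaled to transcript length and to the mapped fragments of a library, so levels of different genes can be set side by side per length. Low values put the depth at about 9750000 to 10800000 fragments in the libraries labelled KO and 11200000 to 14600000 in those labelled WT. Arid5a itself, an RNA-binding protein and the targeted gene, stood at 2.16 and 1.77 FPKM in the libraries labelled KO, against 0.225 and 0.124 FPKM in those labelled WT. Its direction goes against the labels (limma, log2 change 1.33 ± 0.13, adjusted p = 0.0013), so every direction below refers to the libraries as labelled and not to a loss of Arid5a. Of 10 epithelial and intestinal markers, 0 reached a mean of 1 FPKM, and Epcam, Cdx1 and Cdx2 were listed at 0 in all 4 libraries. Of 13 leukocyte markers only Cd68 reached it, and Cd3e, Cd4, Itgam, Adgre1 and Itgax were among those listed at 0 throughout. The leukocyte markers summed to 2.09 and 2.72 FPKM in the libraries labelled KO, against 8.49 and 8.58 FPKM in those labelled WT. Of these sums Cd68 alone held 1.03 and 1.67 FPKM (KO), against 6.14 and 5.80 FPKM (WT). The 8 fibroblast markers, of which 5 reached 1 FPKM, summed to 19.98 and 20.7 FPKM (KO), against 45.2 and 41.03 FPKM (WT). Col1a1, a collagen chain, rose by 1.27 on the log2 scale, while the collagen chain Col3a1 and the proteoglycan Dcn changed by -1.88 and -1.70. The part of these markers in the results below was not tested.

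DNA replication starts at origins that the origin recognition complex marks and that Cdc6 and Cdt1 load with the ring-shaped MCM helicase in G1. Cdc45 and the GINS complex then join MCM to form the active helicase, and polymerase alpha-primase, the clamp loader RFC, the clamp PCNA and polymerases delta and epsilon copy the unwound strands. Many of these genes are transcribed by E2F factors as cells enter S phase, and their mRNAs are widely used as signs of proliferation, also in tumour cells.

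The replication genes did not move as a block. A gene was called at an adjusted p under 0.05 (limma, Benjamini-Hochberg over the 10827 genes whose mean reached 1 FPKM). On this rule 9 of the 42 replication genes were higher and 12 were lower in the libraries labelled KO, and 21 were not called. Over all genes tested, 47.6% were called, with 24.4% higher and 23.3% lower, so the share of replication genes called, 21 of 42, was near the background. Counts by role below stand beside this same background. Their median log2 change, on the log2(FPKM + 1) scale, was 0.015, against 0.0056 over all genes tested. Their median absolute change was 0.12, against 0.18 over all genes tested. None of the 42 reached an absolute log2 change of 1, which 338 of the 10827 genes tested did. These comparisons are not matched for level: the genes tested go down to a mean of 1 FPKM, and the lowest level of any member was 10.5 FPKM. Both libraries of 1 group lay beyond both of the other for 34 of the 42, against 77.5% of all genes tested.

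The members with the largest changes were Mcm3, a subunit of the MCM ring, and Pcna, the clamp, among those higher, and Prim1, the catalytic primase subunit, and Orc2, an origin recognition subunit, among those lower. The 42 genes summed to 3690 and 3678 FPKM in the libraries labelled KO, against 3468 and 3468 FPKM in those labelled WT. Without Pcna and Rrm2, whose levels were the highest and which were both higher in the libraries labelled KO, the sums were 2780 and 2762 FPKM (KO), against 2754 and 2761 FPKM (WT). The libraries labelled KO also had larger FPKM sums over all genes. As a share of the library, the 42 genes held 0.578% and 0.584% (KO), against 0.577% and 0.569% (WT). Without Pcna and Rrm2 the shares were 0.436% and 0.439% (KO), against 0.458% and 0.453% (WT). Replicates lay close together: the median absolute difference between replicates, over the 42 genes, was 0.029 (KO) and 0.032 (WT) on the log2 scale, against 0.063 (KO) and 0.058 (WT) over all genes tested. The widest were Pole2 in the libraries labelled KO (0.20) and Orc1 in those labelled WT (0.11). The lowest level of any member was 10.5 FPKM, so all 42 passed the filter of 1 FPKM. The genes tested include lower ones, so the replicate differences are not matched for level. Depending on the transcript, the least covered member had about 65 fragments (Orc4) or 255 fragments (Orc3) in a library, which allows a counting error of 12.4% or 6.26%. In bulk RNA, more cells in S phase and more RNA per cell cannot be told apart.

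Scaling by the library sum bears on the balance of these calls. With values rescaled to 1 common sum in every library, 8 replication genes were called higher and 17 lower. Of all calls 37.3% were then higher, against 51.2% with FPKM as deposited, and the median change over all genes tested was -0.057. Other scalings moved the counts less: 8 higher and 12 lower with the median of ratios, and 9 and 11 with quantile normalisation. Leaving out WT replicate 2 brought the number of replication genes called higher down to 5, since Orc4, Gins1, Gins2 and Pole2 were then not called, and the number of all genes called to 3216. Their changes were 0.28, 0.32, 0.15 and 0.33 in that fit, against 0.30, 0.37, 0.13 and 0.34 with all 4 libraries. Such a fit sets 1 library against 2, and the lone library is assumed to vary like the other group, which makes it the smaller design. Without WT replicate 1 the number of all genes called was 3325. Of the 21 calls, 14 held under all 13 alternative fits.

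**Figure D1:**
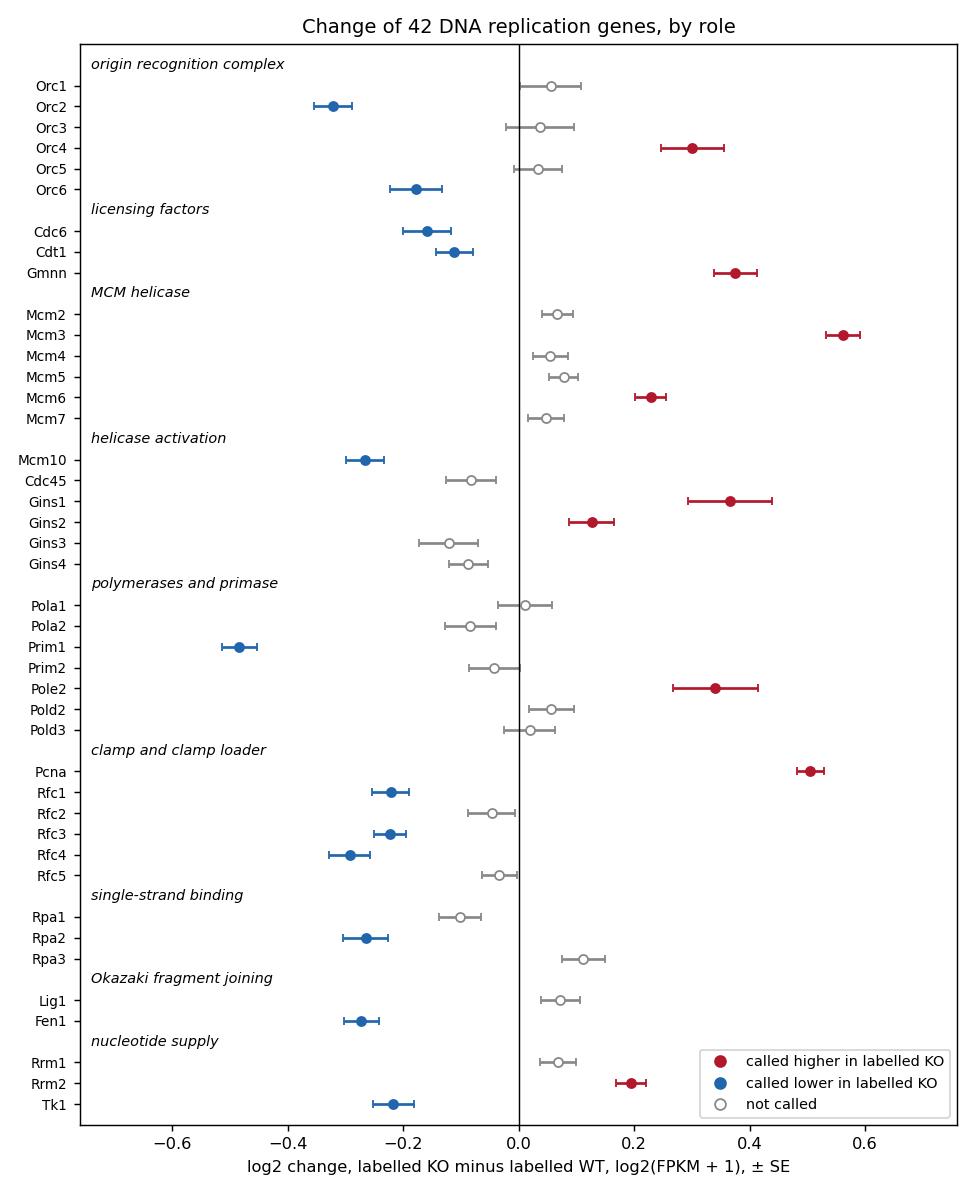
Log2 change of the 42 replication genes (libraries labelled KO minus those labelled WT, log2(FPKM + 1)), grouped by role, with bars for the standard error; filled points were called. Called genes lie on both sides of 0 in most roles, from -0.48 (Prim1) to 0.56 (Mcm3).

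Promoters of the members with the largest changes are shown, since E2F factors are known regulators of this machinery. RefSeq starts on GRCm38.p6 gave 43 promoter windows for 35 of the 42 genes, each from 250 bases before to 50 bases after the start. An E2F-type motif (TTTCCCGC, TTTCGCGC, TTTGCCGC or TTTGGCGC, on both strands) was in a window of 14 of the 35 genes (40.0%), against 5.04% of the 8319 tested genes and 2.61% of all 27025 genes with a window. It was in 3 of 6 genes called higher, 3 of 12 called lower and 8 of 17 not called. The CCAAT box (CCAAT on both strands) was in 23 of 35, against 44.0% of the tested genes. Windows from 120 bases before to 30 bases after the start follow, 5′ to 3′ on the strand of the gene, with E2F-type and CCAAT matches in capitals. Mcm6 (chr1:128359676-128359825, minus strand) held the most E2F-type matches of the 35. Mcm3 (chr1:20820283-20820432, minus strand), Pcna (chr2:132253151-132253300, minus strand) and Pole2 (chr12:69228161-69228310, minus strand) are the 3 with the largest rises that have a window. Prim1 (chr10:128015095-128015244, plus strand), Orc2 (chr1:58505080-58505229, minus strand) and Rfc4 (chr16:23127701-23127850, minus strand) are the 3 with the largest falls.
Mcm6: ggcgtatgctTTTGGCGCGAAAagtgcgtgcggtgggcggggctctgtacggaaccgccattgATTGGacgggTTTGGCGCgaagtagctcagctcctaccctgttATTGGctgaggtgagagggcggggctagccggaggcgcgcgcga
Mcm3: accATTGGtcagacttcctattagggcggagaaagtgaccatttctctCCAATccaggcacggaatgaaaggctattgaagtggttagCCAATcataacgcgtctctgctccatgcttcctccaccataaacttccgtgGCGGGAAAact
Pcna: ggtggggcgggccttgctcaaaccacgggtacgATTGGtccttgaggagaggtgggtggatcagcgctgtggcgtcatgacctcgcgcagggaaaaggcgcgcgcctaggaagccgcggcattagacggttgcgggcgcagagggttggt
Pole2: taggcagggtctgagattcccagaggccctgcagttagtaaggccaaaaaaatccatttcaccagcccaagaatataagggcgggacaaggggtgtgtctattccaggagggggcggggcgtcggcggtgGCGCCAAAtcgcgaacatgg
Prim1: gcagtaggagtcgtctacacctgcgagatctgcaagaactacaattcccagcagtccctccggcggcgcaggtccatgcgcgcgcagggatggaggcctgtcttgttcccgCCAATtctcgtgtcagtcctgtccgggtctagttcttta
Orc2: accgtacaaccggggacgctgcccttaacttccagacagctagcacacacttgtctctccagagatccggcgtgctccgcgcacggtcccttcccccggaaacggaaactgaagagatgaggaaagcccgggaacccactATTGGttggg
Rfc4: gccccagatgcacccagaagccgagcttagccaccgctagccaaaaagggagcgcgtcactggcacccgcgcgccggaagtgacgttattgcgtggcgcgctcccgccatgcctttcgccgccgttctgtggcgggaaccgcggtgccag
Mcm6 has 3 E2F-type and 2 CCAAT matches here, the 3 E2F-type ones including an overlapping pair. Mcm3 has 1 and 3, Pcna 0 and 1, Pole2 1 and 0, and Prim1 and Orc2 0 and 1 each. Rfc4 has neither. A match is a description of the letters and not evidence of binding.

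Origin recognition subunits went in both directions. Orc2 (chromosome 1, 58462771 to 58505109, minus strand, GRCm38), a core subunit, stood at 38.2 and 38.1 FPKM in the libraries labelled KO, against 47.5 and 48.4 FPKM in those labelled WT. That was a log2 change of -0.32 ± 0.033, with its SE (limma, adjusted p = 0.00163), and the 2 libraries of each label differed far less than the groups did. Orc4, an ATP-binding subunit, lies on chromosome 2 (48902824 to 48950277, minus strand). It stood at 23.6 and 21.7 FPKM in the libraries labelled KO, against 18.4 and 18.0 FPKM in those labelled WT. The change was 0.30 ± 0.055 (limma, adjusted p = 0.00916). The other genes of chromosome 2 had a median of 0.23, which leaves 0.073 for Orc4 when it is taken off. Its call was lost without WT replicate 2, with a change of 0.28 (limma, adjusted p = 0.0581; 0.00437 to 0.0581 over the 13 alternatives). Orc6, which helps recruit MCM, stood at 76.4 and 71.8 FPKM in the libraries labelled KO, against 81.9 and 85.9 FPKM in those labelled WT. It fell by 0.18 ± 0.045 (limma, adjusted p = 0.0248), but lost the call on leaving out KO replicate 2 (adjusted p = 0.0897), WT replicate 1 (0.0522) and WT replicate 2 (0.12), and on dropping the mean-variance trend (0.0613; 0.00614 to 0.12 over the 13 alternatives).

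The other origin recognition subunits were not called. Orc1, the subunit that carries the main ATPase activity, stood at 24.3 and 23.9 FPKM (KO), against 22.2 and 24.1 FPKM (WT), with overlapping groups and a log2 change of 0.055 ± 0.052. Orc3 stood at 11.3 and 10.5 FPKM (KO), against 10.5 and 10.8 FPKM (WT), and Orc5 at 24.7 and 25.7 FPKM (KO), against 24.7 and 24.5 FPKM (WT), with changes of 0.037 ± 0.06 and 0.034 ± 0.042. Per length, Orc3 was the lowest and Orc6 the highest of the 6 subunits in every library, 6.73 and 6.81 times apart in the libraries labelled KO, against 7.84 and 7.94 times in those labelled WT. Orc4 over Orc2, a ratio that a single scaling factor per library cannot alter, was 0.619 and 0.569 (KO), against 0.388 and 0.371 (WT). Exons of Orc2 share 1150 of 3857 bases with Nif3l1 on the opposite strand, which was at 20.5 and 19.1 FPKM (KO), against 20.1 and 21.3 FPKM (WT).

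Licensing factors and their inhibitor moved apart. Gmnn (chromosome 13, 24751845 to 24761923, minus strand) encodes geminin, which binds Cdt1 and blocks a further round of MCM loading. It stood at 77.8 and 76.4 FPKM in the libraries labelled KO, against 57.8 and 60.7 FPKM in those labelled WT, a rise of 0.38 ± 0.037 (limma, adjusted p = 0.00142), while the other genes of chromosome 13 had a median of -0.12. Cdt1, the MCM loading factor that geminin binds, stood at 105 and 101 FPKM in the libraries labelled KO, against 111 and 111 FPKM in those labelled WT. It fell by 0.11 ± 0.032 (limma, adjusted p = 0.0377). This call was lost with quantile normalisation (adjusted p = 0.0571), without a mean-variance trend (0.104) and on leaving out KO replicate 2 (0.138), WT replicate 1 (0.123) or WT replicate 2 (0.134; 0.0082 to 0.138 over the 13 alternatives). Cdc6, an ATPase that loads MCM with Cdt1, stood at 19.8 and 19.8 FPKM in the libraries labelled KO, against 22.6 and 21.9 FPKM in those labelled WT. Its change of -0.16 ± 0.042 was called (limma, adjusted p = 0.0284), but not when any of the 4 libraries was left out (adjusted p from 0.0837 to 0.145; 0.0126 to 0.145 over the 13 alternatives). Cdt1 over Gmnn was 1.35 and 1.32 in the libraries labelled KO, against 1.92 and 1.84 in those labelled WT. This ratio and those below were chosen after their values were seen and are descriptions, with no test.

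The 6 subunits of the MCM ring all had positive changes, and 2 of them were called. Mcm3 (chromosome 1, 20802968 to 20820312, minus strand) averaged 180.2 ± 3.42 FPKM in the libraries labelled KO and 122 ± 1.85 FPKM in those labelled WT (SD, n = 2 each), or 183 and 178 FPKM (KO) against 120.4 and 123 FPKM (WT) by library. The rise was 0.56 ± 0.03 on the log2 scale (limma, adjusted p = 0.000249), a ratio of means of 1.48, and held in each of 13 alternative fits (adjusted p up to 0.00427). Mcm6 (chromosome 1, 128331590 to 128359664, minus strand) stood at 177 and 177 FPKM in the libraries labelled KO, against 149.6 and 152 FPKM in those labelled WT, a rise of 0.23 ± 0.026 (limma, adjusted p = 0.00221). Both lie on chromosome 1, where the other 581 genes tested had a median change of 0.029.

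Changes of the remaining MCM subunits were smaller than 0.1. Mcm5 stood at 148 and 148 FPKM (KO), against 139.8 and 140.5 FPKM (WT), with separate groups and a change of 0.078 ± 0.026 (limma, adjusted p = 0.0552). Mcm2 stood at 122 and 121 FPKM (KO), against 115 and 116 FPKM (WT), a change of 0.067 ± 0.027 (limma, adjusted p = 0.095). Mcm4 stood at 89.5 and 90.2 FPKM (KO), against 85.3 and 87.6 FPKM (WT), and Mcm7 at 191 and 189 FPKM (KO), against 188 and 180.3 FPKM (WT), with changes of 0.055 ± 0.03 and 0.048 ± 0.031. Those of Mcm4 and Mcm7 were below 0 after rescaling by the sum. Mcm3 made up 20.1% and 19.7% of the summed FPKM of the ring in the libraries labelled KO, against 15.1% and 15.4% in those labelled WT. Mcm7 had the highest and Mcm4 the lowest level in every library, 2.06 to 2.201 times apart. Mcm3 over Mcm5 was 1.23 and 1.20 (KO), against 0.861 and 0.876 (WT). Mcm7 has a processed pseudogene, Gm5487, whose annotated transcript is 97.7% identical over 2157 bases, so its reads may be shared and its level is uncertain.

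Helicase activators were mixed as well. Mcm10, which helps MCM open into an active helicase, lies on chromosome 2, 4989714 to 5012791, minus strand, and stood at 34.9 and 34.9 FPKM in the libraries labelled KO, against 42.4 and 42.04 FPKM in those labelled WT. It fell by 0.27 ± 0.033 (limma, adjusted p = 0.00287), although the other 828 genes tested on that chromosome had a median of 0.23. Gins1, a GINS subunit also on chromosome 2, 150905400 to 150931280, plus strand, stood at 49.6 and 56.8 FPKM in the libraries labelled KO, against 42.3 and 39.7 FPKM in those labelled WT. It rose by 0.37 ± 0.073 (limma, adjusted p = 0.0121), with the widest spread of the GINS genes between the libraries labelled KO. Its call was lost on leaving out WT replicate 2, with a change of 0.32 (limma, adjusted p = 0.0683, and 0.0059 to 0.0683 over the 13 alternatives). Gins2 stood at 64.7 and 61.9 FPKM in the libraries labelled KO, against 56.9 and 58.9 FPKM in those labelled WT, a change of 0.13 ± 0.039 (limma, adjusted p = 0.0445). This call was lost in 9 of 13 alternatives, among them the omission of each library (adjusted p from 0.0535 to 0.183), no filter (0.0616) and rescaling by the sum (0.215, the highest of the 13). Exons of Gins2 share 2758 of 4097 bases with Gse1 on the opposite strand, which was at 3.79 and 4.08 FPKM (KO), against 4.52 and 4.43 FPKM (WT).

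Cdc45 stood at 44.2 and 43.7 FPKM (KO), against 45.1 and 48.2 FPKM (WT), a change of -0.083 ± 0.043 (limma, adjusted p = 0.169). Gins3 stood at 11.7 and 11.4 FPKM (KO), against 12.4 and 12.9 FPKM (WT), with separate groups and a change of -0.12 ± 0.051 (limma, adjusted p = 0.107). Gins4 stood at 46.0 and 45.0 FPKM (KO), against 48.1 and 48.7 FPKM (WT), a change of -0.087 ± 0.033 (limma, adjusted p = 0.0831). These 3 were not called with FPKM as deposited, and were called lower after rescaling by the sum (limma, adjusted p of 0.0316, 0.0308 and 0.0166, each the lowest of its 13 alternatives). In each library Gins3 was the lowest and Gins2 the highest of the 4 GINS genes, 5.52 and 5.43 times apart in the libraries labelled KO, against 4.58 and 4.57 times in those labelled WT.

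**Figure D2:**
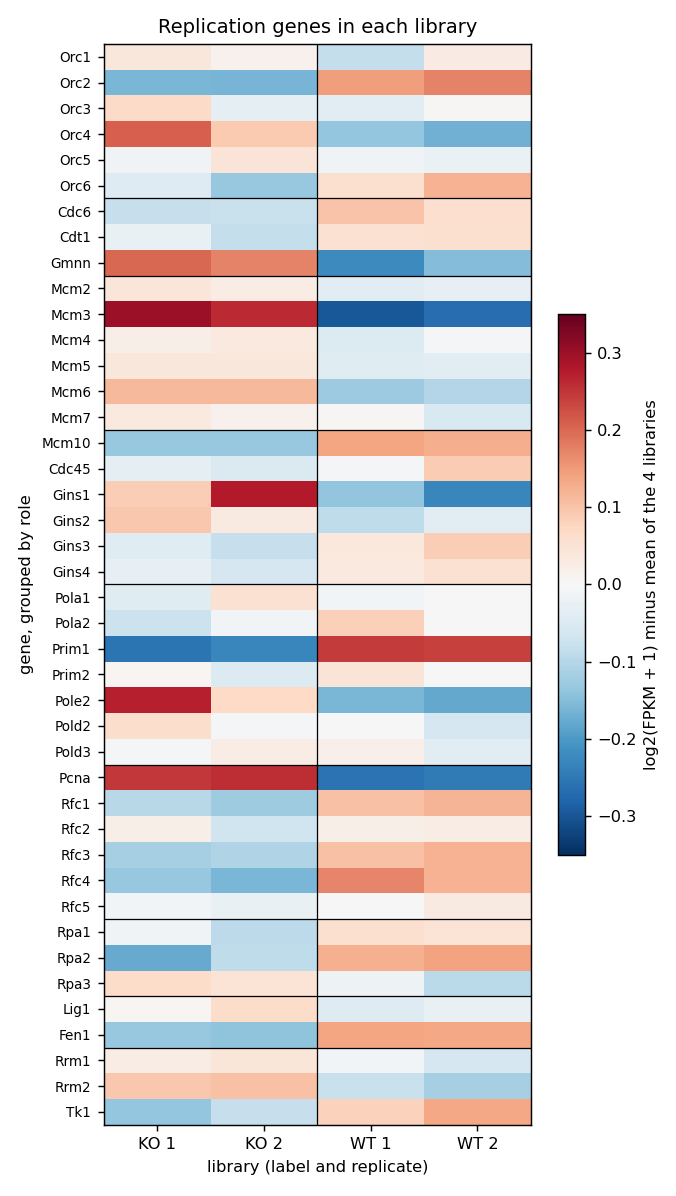
Value of each replication gene in each library, as log2(FPKM + 1) minus the mean of the 4 libraries, with rows grouped by role and the libraries labelled KO at left. Mcm3, Pcna and Gmnn are high and Prim1 is low in both libraries labelled KO, while in Gins1 and Pole2 1 library labelled KO stands above the other.

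Among the polymerase and primase genes, 1 rose, 1 fell and 5 were not called. Prim1 (chromosome 10, 128015168 to 128030037, plus strand) encodes the subunit that makes RNA primers and stood at 55.5 and 56.5 FPKM in the libraries labelled KO, against 78.9 and 78.6 FPKM in those labelled WT. It averaged 56.0 ± 0.731 FPKM (KO) and 78.7 ± 0.233 FPKM (WT; SD, n = 2 each), a ratio of 0.712 and a log2 change of -0.48 ± 0.03 (limma, adjusted p = 0.000403). This fall was the largest of the 42 genes and was called in each of 13 alternative fits (adjusted p up to 0.00667). Its partners in the same enzyme were not called. Prim2, the large primase subunit, stood at 24.8 and 23.8 FPKM (KO), against 25.5 and 24.6 FPKM (WT), and the polymerase alpha subunits stood at 28.7 and 30.8 FPKM (KO), against 29.4 and 29.6 FPKM (WT) for Pola1 and 58.4 and 61.2 FPKM (KO), against 65.3 and 61.6 FPKM (WT) for Pola2. Their changes were -0.042 ± 0.044, 0.011 ± 0.047 and -0.083 ± 0.044. Prim1 over Prim2 was 2.24 and 2.38 (KO), against 3.10 and 3.19 (WT). Of the summed FPKM of the 4 genes, Prim1 held 33.2% and 32.8% (KO), against 39.6% and 40.4% (WT).

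Pole2, an accessory subunit of the leading-strand polymerase epsilon (chromosome 12, 69201773 to 69228195, minus strand), stood at 27.4 and 23.7 FPKM in the libraries labelled KO, against 20.1 and 19.8 FPKM in those labelled WT. It rose by 0.34 ± 0.074 (limma, adjusted p = 0.0156), with the larger spread between the libraries labelled KO, and lost its call on leaving out WT replicate 1 (change 0.35; limma, adjusted p = 0.0678) or WT replicate 2 (change 0.33; adjusted p = 0.0787, and 0.00679 to 0.0787 over the 13 alternatives). The other 362 genes tested on chromosome 12 had a median change of 0.15. Pold2 and Pold3 encode accessory subunits of the lagging-strand polymerase delta and overlapped between the groups. Pold2 stood at 85.7 and 81.8 FPKM (KO), against 82.2 and 78.8 FPKM (WT), and Pold3 at 21.7 and 22.2 FPKM (KO), against 22.1 and 21.2 FPKM (WT), with changes of 0.057 ± 0.039 and 0.019 ± 0.044.

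The clamp rose while its loader did not. Pcna (chromosome 2, 132249162 to 132253314, minus strand), the ring that holds polymerases on DNA, had the highest level of the 42 genes and averaged 516 ± 3.10 FPKM in the libraries labelled KO and 363 ± 2.23 FPKM in those labelled WT (SD, n = 2 each). By library it stood at 514 and 518 FPKM in the libraries labelled KO, against 362 and 365 FPKM in those labelled WT. The rise was 0.50 ± 0.024 (limma, adjusted p = 0.000191), a ratio of means of 1.42, and was called in each of 13 alternative fits (adjusted p up to 0.00343). On chromosome 2 the other genes had a median of 0.23, which leaves 0.28 for Pcna when it is taken off. The pseudogene Pcna-ps2 is 99.2% identical over 781 bases, so reads of Pcna may be shared with it and its level is uncertain to that degree.

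Of the 5 clamp loader genes, 3 fell and 2 were not called. Rfc4 stood at 43.3 and 42.5 FPKM in the libraries labelled KO, against 53.6 and 51.9 FPKM in those labelled WT, a change of -0.29 ± 0.036 (limma, adjusted p = 0.0026). Rfc3 stood at 97.7 and 98.5 FPKM in the libraries labelled KO, against 114 and 115 FPKM in those labelled WT, a change of -0.22 ± 0.028 (limma, adjusted p = 0.00276), and Rfc1, the large subunit, at 48.4 and 47.5 FPKM (KO), against 55.8 and 56.4 FPKM (WT), a change of -0.22 ± 0.032 (limma, adjusted p = 0.00451). All 3 were called in each of 13 alternative fits. Rfc4 shares 194 of 1533 exonic bases with Eif4a2 on the opposite strand. Eif4a2 was at 53.3 and 53.1 FPKM (KO), against 62.4 and 62.6 FPKM (WT). Rfc2 stood at 55.7 and 52.2 FPKM (KO), against 55.6 and 55.9 FPKM (WT), and Rfc5 at 77.6 and 76.7 FPKM (KO), against 78.1 and 79.8 FPKM (WT), with changes of -0.047 ± 0.041 and -0.033 ± 0.03. After rescaling by the sum Rfc5 was called lower (limma, adjusted p = 0.046, and 0.046 to 0.752 over the 13 alternatives). Summed over the 5 genes the loader was at 323 and 317 FPKM (KO), against 357 and 359 FPKM (WT). Pcna over Rfc1 was 10.6 and 10.9 in the libraries labelled KO, against 6.48 and 6.47 in those labelled WT.

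RPA, the trimer that coats unwound strands, had 1 gene called. Rpa2 stood at 61.4 and 65.2 FPKM in the libraries labelled KO, against 75.8 and 76.7 FPKM in those labelled WT, a change of -0.27 ± 0.04 (limma, adjusted p = 0.00483). Rpa1, which carries most of the DNA binding, stood at 96.6 and 91.4 FPKM (KO), against 101 and 101 FPKM (WT), with separate groups and a change of -0.10 ± 0.036 (limma, adjusted p = 0.0687). It was called lower without KO replicate 1 (adjusted p = 0.0438) and after rescaling by the sum (0.0141, and 0.0141 to 0.23 over the 13 alternatives). Rpa3 stood at 73.2 and 72.5 FPKM (KO), against 69.2 and 65.5 FPKM (WT), a change of 0.11 ± 0.038 (limma, adjusted p = 0.0577), and was called higher with robust moderation of variances (0.0484, and 0.0484 to 0.413 over the 13 alternatives). Rpa2 over Rpa1 was 0.636 and 0.714 (KO), against 0.749 and 0.762 (WT).

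Okazaki fragments are trimmed by the flap nuclease Fen1 and sealed by DNA ligase Lig1. Fen1 (chromosome 19, 10199132 to 10204169, minus strand) stood at 54.5 and 54.2 FPKM in the libraries labelled KO, against 65.9 and 65.8 FPKM in those labelled WT. It fell by 0.27 ± 0.030 (limma, adjusted p = 0.00192), with replicates almost level in both groups. Lig1 stood at 85.1 and 88.7 FPKM (KO), against 82.0 and 83.2 FPKM (WT), a change of 0.072 ± 0.034 (limma, adjusted p = 0.133). Pcna, which both enzymes bind, exceeded Fen1 by 9.43 and 9.56 times in the libraries labelled KO, against 5.49 and 5.55 times in those labelled WT. Fen1 shares 130 of 2422 exonic bases with Tmem258 on the opposite strand, which was at 218 and 218 FPKM (KO), against 227 and 219.98 FPKM (WT).

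Of the 3 nucleotide supply genes, 1 rose, 1 fell and 1 was not called. Rrm2 (chromosome 12, 24708241 to 24714146, plus strand), the S phase subunit of ribonucleotide reductase, stood at 396 and 398 FPKM in the libraries labelled KO, against 352 and 342 FPKM in those labelled WT. It rose by 0.19 ± 0.026 (limma, adjusted p = 0.00353), beside a median of 0.15 for the other genes of chromosome 12, which leaves 0.046. Rrm1, the large reductase subunit, stood at 104 and 105 FPKM (KO), against 101 and 97.8 FPKM (WT), a change of 0.068 ± 0.032 (limma, adjusted p = 0.129). Tk1, the thymidine kinase of the salvage pathway, stood at 117 and 122 FPKM in the libraries labelled KO, against 136 and 142 FPKM in those labelled WT. It fell by 0.22 ± 0.036 (limma, adjusted p = 0.00669), beside a median of -0.097 for the other genes of chromosome 11, which leaves -0.12. Rrm2 over Rrm1 was 3.82 and 3.80 (KO), against 3.48 and 3.50 (WT).

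**Figure D3:**
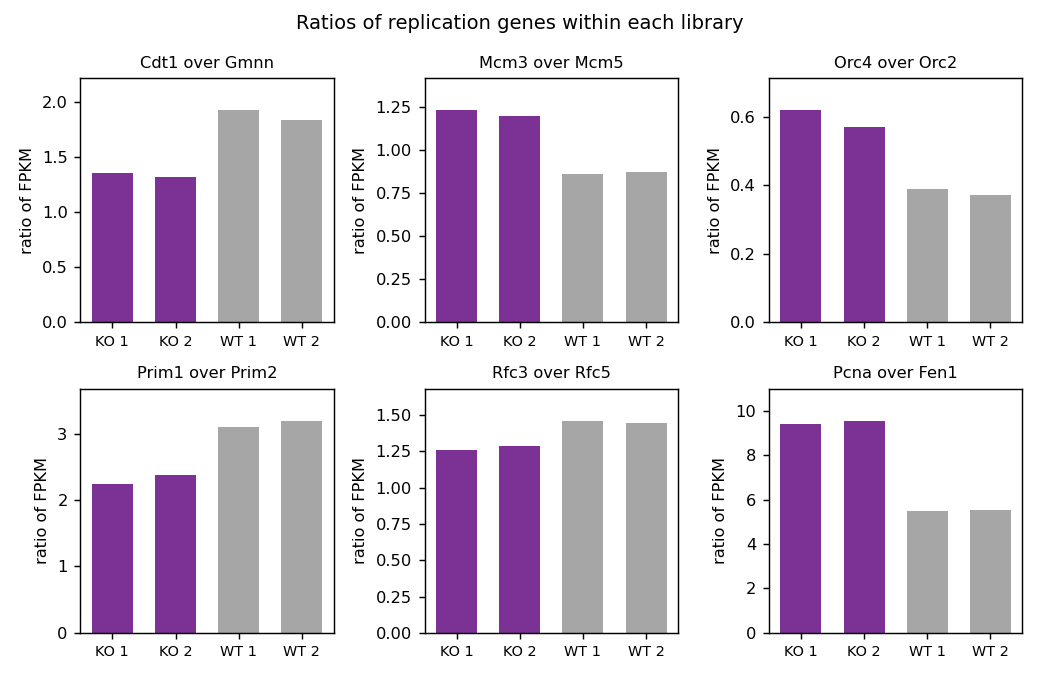
Ratios of FPKM between replication genes within each of the 4 libraries, with the libraries labelled KO at left; the pairs were chosen after their values were seen. In all 6 panels the 2 libraries of a label are closer to each other than to the other label, for example Cdt1 over Gmnn at 1.35 and 1.32 (KO) against 1.92 and 1.84 (WT).

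Other replication genes also went in both directions. Of 70 further genes tested, 17 rose and 15 fell, with a median of 0.0012. Of the 7 on chromosome 2, 5 rose and 0 fell, where 54.7% of the other genes tested were called higher. Of the 63 elsewhere 12 rose and 15 fell. The list of the 70 was drawn up by function, also with earlier results known. The share called, 45.7%, was near the 47.6% of all genes tested, and the counts of the smaller groups below stand beside the same background of 24.4% higher and 23.3% lower. Initiation kinases and firing factors rose in 2 of 11 cases and fell in 0: Mtbp, a firing factor, by 0.23 and Dbf4, the activator of the Cdc7 kinase, by 0.20. Polymerase subunits rose in 1 of 6 cases and fell in 2. The catalytic subunit of polymerase delta, Pold1, rose by 0.24, while that of polymerase epsilon, Pole, changed by -0.19 and its small subunit Pole4 by -0.18. Of 15 fork factors 5 rose and 5 fell, led by the topoisomerase Top2a (0.41), the RNase H2 subunit Rnaseh2a (-0.40) and the nuclease Dna2 (0.33).

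Of 10 further nucleotide genes, 3 rose and 3 fell. Dut, which removes dUTP, rose by 0.59 ± 0.031 (limma, adjusted p = 0.000247), from the same chromosome 2 as Pcna. Dctpp1, a dCTP pyrophosphatase, changed by -0.37 and Rrm2b, the p53-induced reductase subunit, by -0.23. Of 11 chromatin assembly genes 3 rose and 2 fell, with Ssrp1 and Supt16 of the FACT complex at 0.31 and 0.23 and the histone chaperone Nasp at 0.17. Of 13 E2F and pocket protein genes 2 rose and 3 fell. Rb1 stood at 3.94 and 3.27 FPKM (KO), against 5.69 and 6.07 FPKM (WT) (limma, log2 change -0.58 ± 0.096, adjusted p = 0.00669), Rbl1 at 40.0 and 37.6 FPKM (KO), against 26.5 and 27.4 FPKM (WT) (0.51 ± 0.046, adjusted p = 0.00109) and Rbl2 at 9.77 and 9.49 FPKM (KO), against 11.9 and 12.6 FPKM (WT) (-0.32 ± 0.057, adjusted p = 0.00859). These pocket proteins restrain E2F factors. Rbl1, like Ssrp1 and Dut, lies on chromosome 2, where the other genes tested had a median of 0.23. E2f1 itself stood at 38.0 and 37.1 FPKM (KO), against 38.5 and 36.5 FPKM (WT), a change of 0.00042 that was not called. The remaining called genes of this list were E2f4, which rose by 0.20 (limma, adjusted p = 0.0137), and E2f2, which changed by -0.29 (adjusted p = 0.0229). Of 4 S phase cyclin and kinase genes, Ccne1 (cyclin E1) was called, with a rise of 0.37.

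Of 20 mitotic markers, 13 rose and 5 fell, with a median of 0.29, against 24.4% higher and 23.3% lower among all genes tested. The difference between that list and the replication genes was not tested. The mitotic markers summed to 1736 and 1761 FPKM in the libraries labelled KO, against 1493 and 1472 FPKM in those labelled WT. Ube2c, the highest of them, held 354 and 376 FPKM (KO), against 222 and 220 FPKM (WT), of these sums. The 5 that fell were Hmmr (-0.41), Foxm1 (-0.36), Birc5 (-0.36), Cenpe (-0.24) and Cdc20 (-0.22). Nusap1 and Ube2c, which act in spindle assembly and mitotic exit, rose by 0.80 and 0.72, and the checkpoint kinase Bub1 by 0.51. All 3 lie on chromosome 2. Of the 6 mitotic markers on that chromosome all 6 rose, where 54.7% of the other genes tested were called higher, and of the 14 elsewhere 7 rose and 5 fell.

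Shared sequence limits some of these values. Of the 42 genes, 11 share exonic bases with another measured gene: Mcm7, Gins2, Rfc2, Rfc4, Rfc5, Orc2, Orc4, Orc5, Orc6, Fen1 and Tk1. How strand was treated in counting is not given in the sources used here, so reads of such pairs may not be told apart. Some partners of called genes moved the same way: Eif4a2 (Rfc4) was at 53.3 and 53.1 FPKM (KO), against 62.4 and 62.6 FPKM (WT). Afmid (Tk1) was at 4.12 and 4.57 FPKM (KO), against 8.52 and 7.71 FPKM (WT). Acvr2a (Orc4) was at 3.78 and 3.44 FPKM (KO), against 2.82 and 2.57 FPKM (WT). Gse1 (Gins2) and Vps35 (Orc6) moved the other way. The part of overlap in these changes was not tested. Genes that were not measured were not searched for overlaps, so some of the remaining 31 may have one. These 31 genes gave 7 rises and 7 falls, with a median change of 0.037. Transcripts at least 95% identical over 200 bases or more also exist for Cdc6 (Gm9430), Rfc5 (Gm12870), Rrm2 (Gm48455), Fen1 (Gm10143), Pole2 (Gm49384) and Lig1 (Zswim9). The levels of these 6 genes are uncertain to that degree. For Fen1 the identity was 100% over 1911 bases, to an antisense transcript that was not measured. For Lig1 it was 100% over 221 bases and for Pole2 99.6% over 249 bases.

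Chromosomes differed in the direction of their genes, and replication genes lie on several that stood apart. The other genes tested on chromosome 2 had a median change of 0.23, and 54.7% of them were called higher and 9.30% lower. On chromosome 12 the median was 0.15, with 41.4% higher and 8.84% lower. These are the highest medians of the 20 chromosomes with tested genes, and the chromosomes were singled out after their values were seen. Of the 4 replication genes on chromosome 2, Pcna, Gins1 and Orc4 rose and Mcm10 fell, and both on chromosome 12, Pole2 and Rrm2, rose. Other chromosomes stood apart downward: chromosome 11 with a median of -0.097 and 35.6% called lower, chromosome 13 with -0.12 and 40.7%, and chromosome 15, which holds none of the 42, with -0.11 and 39.5%. Of the genes on chromosome 11, Cdc6 changed by -0.16, or -0.061 with the median of its chromosome taken off, and Tk1 by -0.22, or -0.12. Outside chromosomes 2 and 12 the 36 genes gave 4 rises and 11 falls, with a median of -0.038. Leaving these chromosomes out lowers the share of rises among all genes too. Each of the rest had 12.8% to 27.9% of its other genes tested called higher and 16.5% to 40.7% lower. Outside chromosomes 2, 11, 12, 13 and 15 the 31 genes gave 3 rises (Mcm3, Mcm6 and Gins2) and 9 falls, with a median of -0.033. There each chromosome had 16.5% to 27.9% of its other genes tested called higher and 16.5% to 31.7% lower. With the median of its chromosome taken off each change, 21 of the 42 were above 0 and 21 below, and the sign was kept by 41, with Pold3 the exception. The part of chromosome position in these changes was not tested.

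**Figure D4:**
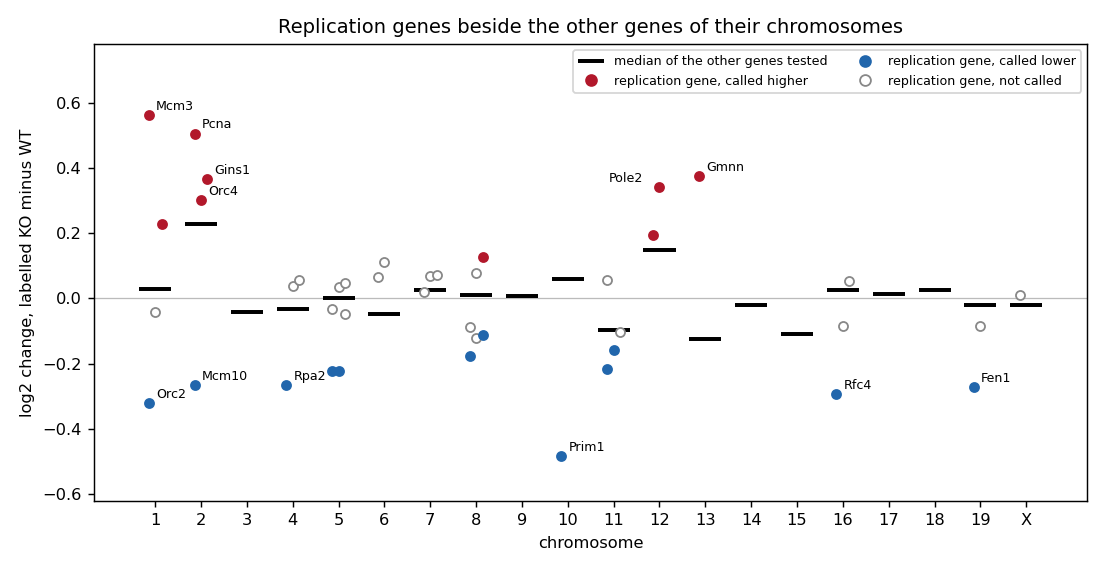
Log2 change (libraries labelled KO minus WT) of each replication gene, placed by chromosome, beside the median of the other genes tested on that chromosome (black lines). The lines stand highest on chromosomes 2 (0.23) and 12 (0.15), where 5 of the 9 genes called higher lie, while Mcm10 on chromosome 2 was lower.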

How the data were processed

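Per the labels' protocols, RNeasy kits gave the RNA of the MC38 cells, and libraries were of the stranded TruSeq mRNA type. Tools named are Cufflinks 2.2.1, TopHat2 2.0.13, SAMtools 0.1.19 and Bowtie2 2.2.3, with build mm10, per the submitters' processing notes. Settings, annotation and strand handling in counting are not given in the sources used here. For each library the authors deposited 1 table of FPKM, normalised for transcript length and mapped fragments. FPKM sums were 638120 and 629442 (KO) and 600844 and 609178 (WT), so rescaling by the sum lowers KO values.

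FPKM values were transformed to log2(FPKM + 1) and fitted with limma 3.58.1 (R 4.3.3, lmFit, eBayes with trend, two-sided), all 4 libraries, no block, after a filter on a mean of at least 1 FPKM. FPKM is not a count, and no count model was used. The fit was tested on simulated data. A log2 change on this scale understates changes of low genes. Errors are standard errors of log2 changes and standard deviations of FPKM.

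Relative depth was read from ratios of values at or below 0.1 FPKM, of which 90.8% to 91.9% came, with a tolerance of 1%, to quotients of whole numbers no larger than 6. Depth was scaled with GENCODE M21 lengths and is approximate, so counting errors are too. Positions came from GENCODE M21 (GRCm38, the assembly of mm10), which matched all 42 genes. Exonic overlaps with measured genes touched 11 of the 42, and near-identical transcripts (at least 95% over 200 bases, BLAST 2.17.0) were searched. Promoters came from RefSeq, GRCm38.p6, and 7 genes had no window. Python 3.11.15, numpy 2.4.6, pandas 2.3.3 and matplotlib 3.10.9 were used.

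The members and all lists were chosen with earlier results of these data known. All 42 members were named, and up to 3 called genes with the largest absolute change from each further list. E2f1, E2f2, E2f4 and the mitotic markers that fell were chosen after their values were seen. So were the genes named beside an overlap or as markers at 0, and the ratios.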

Additional observations from a re-analysis of the deposited data

How the results depend on the processing

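The 9 higher and 12 lower replication genes became 8 to 10 and 10 to 17 under 9 other choices of pseudocount, filter, scaling, moderation and block, and 5 to 8 and 9 to 12 when 1 library was left out. All genes called numbered 5159, and 3216 to 3974 with 1 library left out. The members' median of 0.015 was -0.050 after rescaling by the sum, 0.010 with the median of ratios and 0.020 with quantile normalisation. Over all genes tested the median of 0.0056 became -0.057, 0.00094 and 0.011 with these scalings, in the same order. The members' median was 0.00023 to 0.0059 with 1 library left out and 0.013 with chromosome medians taken off. Over the 36 members outside chromosomes 2 and 12, chosen after seeing the data, 4 were higher and 11 lower (median -0.038). Over the 31 outside chromosomes 2, 11, 12, 13 and 15, chosen likewise, 3 were higher and 9 lower (median -0.033). Chromosomes 2 and 12 had the highest shares of other genes called higher, 54.7% and 41.4%. Leaving them out therefore lowers that share for all genes too. Over the 31 without exonic overlap with a measured gene, also chosen afterwards, 7 were higher and 7 lower (median 0.037). The cause was not tested.

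The labels do not say what the replicate numbers share, and deviations of same-numbered libraries correlated at 0.14 across genes. With the replicate number as a block, 4673 genes were called, with 8 members higher and 10 lower. Orc6, Cdt1 and Gins2 were not called in it (limma, adjusted p of 0.0567, 0.0547 and 0.0794).

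Changes turned sign only for members not called. After rescaling by the sum these were Orc1 (-0.0090), Orc3 (-0.025), Orc5 (-0.031), Mcm4 (-0.011), Mcm7 (-0.019), Pola1 (-0.055), Pold2 (-0.0096) and Pold3 (-0.046). With 1 library left out, Orc3 ranged from -0.012 to 0.086, Pola1 from -0.038 to 0.059, Orc1 from -0.0010 to 0.11 and Pold3 from -0.0087 to 0.047. With chromosome medians taken off it was Pold3 (-0.0081). The E2F-type motif was in 10 members' windows with a stricter spelling and 23 with a looser one, against 14, and in 1.95%, 20.7% and 5.04% of the tested genes in the same order. Depth limited Orc4 and Orc3 most, depending on the transcript taken.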
